A study of Mus musculus with 15 samples.

Results

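The 9 genes described here, Ace, Anpep, Enpep, Mme, Agt, Prcp, Ctsa, Dpp4 and Lnpep, encode angiotensinogen and peptidases that cut angiotensin or other small peptides, several of them at the brush border of the gut. They were chosen by name, from the gene symbols in the deposited files, and 9 of 9 were found among the 17752 genes listed in at least 1 of 15 mice. The samples were ileal tissue of female C57BL/6 mice (substrain C57BL/6JOlaHsd in the study's methods), 8 weeks old by the labels, that were gavaged every 2 days over 10 days. The 5 control mice received water, 5 mice (Low PAC) received 200 mg/kg of a low molecular weight proanthocyanidin (PAC) preparation from grape, and 5 mice (High PAC) received the same dose of a preparation that the labels call high molecular weight. Proanthocyanidins are polymers of flavan-3-ol units, and the study's methods describe its oral fractions by a low and a medium mean degree of polymerization. All groups ate the same purified diet, and nothing but the gavage is stated to differ between them.

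In the renin-angiotensin system, renin cuts angiotensinogen, the product of Agt, to angiotensin I, and angiotensin-converting enzyme (Ace) turns this into the pressor peptide angiotensin II. Aminopeptidase A (Enpep) and aminopeptidase N (Anpep) shorten angiotensin II from its N-terminus, whereas neprilysin (Mme), prolylcarboxypeptidase (Prcp) and cathepsin A (Ctsa) make or remove peptides of the counter-acting arm. On ileal enterocytes Ace, Anpep, Enpep, Mme and dipeptidyl peptidase 4 (Dpp4) also finish the digestion of dietary peptides, Dpp4 inactivates incretin hormones, and Lnpep is the membrane aminopeptidase that binds angiotensin IV.

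Depth was alike in the 15 libraries, with 15963086 to 17903886 expected counts and 16138 to 16392 genes listed per mouse. The tissue label was borne out by markers: Epcam, an epithelial adhesion protein, lay between 892 and 1179 FPKM (fragments scaled to transcript length and to the fragments mapped in the library), and Fabp6, the ileal bile acid binding protein, between 4196 and 10620 FPKM. High PAC replicate 3 stood apart from the other 14 mice. The summed FPKM of 14 structural brush border genes (Vil1, Ezr, Myo1a and others) was 2821 in this mouse and 4492 to 5484 in the others, whereas the sum of 12 general epithelial genes was the highest of all mice, at 7503. Its sums were also the highest for 10 goblet cell genes (18567 against 9918 to 12832 in the other mice), 10 macrophage genes (362 against 161 to 265) and 10 Paneth cell genes (65957 against 23627 to 54947), and the part of these in the values of the 9 genes was not tested. In whole tissue, fewer cells of a type and less RNA per cell cannot be told apart, so values that rest on this mouse are given with and without it. The mice are separate animals, and the p-values set a difference or a correlation against the spread between them.

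Ace has a first and an internal start site, and its upstream windows are shown first because the deposited transcript length of Ace differed between mice. The windows of Anpep, Enpep and Dpp4 are shown because their values varied together over the 15 mice, which for Anpep and Dpp4 did not pass the test without High PAC replicate 3. Each line gives the 250 bases before a RefSeq start site (assembly GRCm38.p6), 5′ to 3′ on the gene's strand. Capitals mark matches, on either strand, to 6 short motifs. TATAAA is the core promoter element and CCAAT the element bound by NF-Y. AGATAA is a motif of GATA factors and GTTAAT a motif of HNF1, while TTTATG is one of CDX factors and CAAAGT one of HNF4. Overlapping matches were allowed. RefSeq windows were found for 9 of 9 genes, 13 windows in all.
Ace, first start (chr11:105967698-105967947, plus strand): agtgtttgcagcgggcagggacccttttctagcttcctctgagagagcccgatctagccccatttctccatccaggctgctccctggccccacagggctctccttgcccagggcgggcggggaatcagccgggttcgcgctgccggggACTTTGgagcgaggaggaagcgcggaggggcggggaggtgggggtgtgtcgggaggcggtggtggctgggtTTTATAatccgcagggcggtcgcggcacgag
Ace, internal start (chr11:105974939-105975188, plus strand): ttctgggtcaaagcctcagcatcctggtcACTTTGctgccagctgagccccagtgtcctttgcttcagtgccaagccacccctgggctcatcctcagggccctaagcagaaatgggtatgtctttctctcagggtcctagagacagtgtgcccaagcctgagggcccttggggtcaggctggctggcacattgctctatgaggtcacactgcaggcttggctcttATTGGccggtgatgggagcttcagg
Anpep (chr7:79848211-79848460, minus strand): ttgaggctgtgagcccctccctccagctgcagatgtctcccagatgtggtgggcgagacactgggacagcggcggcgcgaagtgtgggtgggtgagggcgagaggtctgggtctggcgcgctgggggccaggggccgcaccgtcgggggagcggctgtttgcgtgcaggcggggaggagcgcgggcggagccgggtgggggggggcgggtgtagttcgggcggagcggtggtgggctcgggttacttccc
Enpep (chr3:129332750-129332999, minus strand): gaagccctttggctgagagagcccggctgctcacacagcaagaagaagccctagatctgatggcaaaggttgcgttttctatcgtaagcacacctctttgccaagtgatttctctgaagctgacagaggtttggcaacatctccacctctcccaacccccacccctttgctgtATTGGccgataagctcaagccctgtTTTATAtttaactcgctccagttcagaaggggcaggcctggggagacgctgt
Dpp4 (chr2:62412232-62412481, minus strand): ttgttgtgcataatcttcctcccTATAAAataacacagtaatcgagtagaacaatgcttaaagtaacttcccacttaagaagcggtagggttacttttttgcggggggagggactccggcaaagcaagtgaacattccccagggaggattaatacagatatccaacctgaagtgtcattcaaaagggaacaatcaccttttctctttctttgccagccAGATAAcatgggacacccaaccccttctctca
In Ace, the window before the first start holds CAAAGT on the minus strand at base -102 and TATAAA on the minus strand at base -31, counted from the start site, and the internal window holds CAAAGT at base -221 and CCAAT at base -25, both on the minus strand. Enpep has CCAAT at base -77 and TATAAA at base -52, both on the minus strand, Dpp4 has TATAAA at base -227 and AGATAA at base -32 on the plus strand, and the Anpep window has none of the 6 motifs. Over 32851 RefSeq windows of this length, 12.37% hold the core promoter element, 33.85% the NF-Y element, 9.99% the GATA motif, 6.43% the HNF1 motif, 10.76% the CDX motif and 12.55% the HNF4 motif, and of the 13 windows of the 9 genes 4, 4, 2, 0, 0 and 4 do. No motif of the 6 was found in all 3 of the Anpep, Enpep and Dpp4 windows.

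All 9 genes were expressed in the ileum, over a wide range. Anpep was the highest, with 3431 ± 378 FPKM in water mice (SD, n = 5, as for all FPKM values below), followed by Enpep with 665 ± 104, Dpp4 with 262 ± 26.0 and Ace with 164 ± 52.7. Ctsa, a lysosomal carboxypeptidase, reached 53.7 ± 3.83 FPKM and Mme 48.8 ± 8.91. Agt was at 14.9 ± 2.39, Lnpep at 10.1 ± 2.31 and Prcp at 7.03 ± 0.369. The order held with gaps between neighbours in water mice, except that the ranges of Dpp4 and Ace, of Ctsa and Mme, and of Agt and Lnpep overlapped. Even so, Dpp4 was above Ace and Agt above Lnpep within 15 of 15 mice, and Ctsa was above Mme in 14 of 15.

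Anpep took more expected counts than any other gene of the transcriptome in 14 of 15 mice, between 0.98% and 1.43% of all counts. In High PAC replicate 3 it ranked 11th, with 0.454% of the counts. The 9 genes together took 1.41% to 2.05% of all counts in 14 mice and 0.691% in High PAC replicate 3. The share of Anpep within the 9 genes, 65.7% to 72.8%, was lowest in the same mouse.

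**Figure D1:**
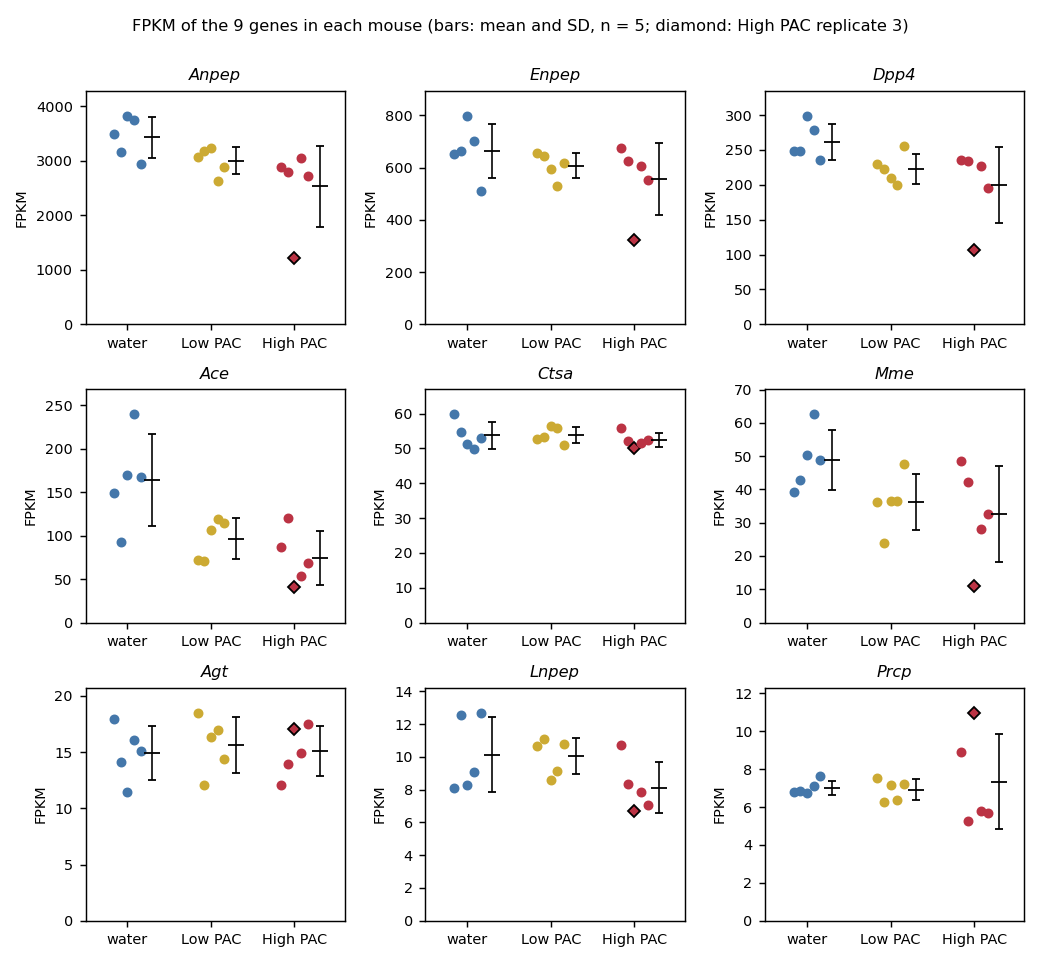
FPKM (vertical axes, from 0) of the 9 genes in each of 15 mice, ordered by their mean in water mice, with the group mean and SD (n = 5) beside the points. For Ace, the 10 PAC mice lie below 4 of the 5 water mice. The lowest point is High PAC replicate 3 (diamond) for Ace, Anpep, Enpep, Dpp4, Mme and Lnpep.

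Ace showed the largest difference of the 9 genes. Its FPKM in water mice was 149, 92.7, 170, 240 and 168, in Low PAC mice 72.0, 70.3, 106, 120 and 114, and in High PAC mice 87.4, 121, 41.0, 53.8 and 68.2. Thus 4 of 5 High PAC mice lay below every water mouse, 2 of 5 Low PAC mice did so, and the groups overlapped through water replicate 2 and High PAC replicate 2. Means were 164 ± 52.7, 96.5 ± 23.6 and 74.2 ± 31.2 FPKM. The edgeR quasi-likelihood test on the expected counts gave a log2 fold change of -1.27 for High PAC against water (SE 0.299, 95% confidence interval -1.91 to -0.64), that is 0.414 times the water level. The unadjusted p was 0.000622, and the p adjusted over 14386 genes was 0.162, so Ace did not pass the threshold of 0.05. Without High PAC replicate 3 the log2 fold change was -1.06 (SE 0.268, adjusted p = 0.247 in edgeR). The call differed between tools: DESeq2 gave adjusted p = 0.0173 with all mice and 0.0371 without High PAC replicate 3. It called 167 of 14386 genes (1.16%) and 103 of 14455 genes (0.713%) in these fits. Those totals include 7809 and 3084 genes without an adjusted p, which could not be called, so the shares among adjusted genes were higher. The study's own rule, NOISeq with a probability over 0.8 and a fold of at least 2, here re-implemented on FPKM, called Ace with a probability of 0.883 and a log2 ratio of means of -1.14, among 0.137% of genes. On FPKM, with 0.1 added before taking log2, Ace differed by -1.18 with a p of 0.0159 in an exact permutation test, for which the smallest possible 2-sided p with 5 against 5 mice is 0.0079. Of 27 such tests, for 9 genes in 3 comparisons, 7 had an unadjusted p under 0.05. They were run on the 9 genes only, so no share over all genes stands beside this count. The 27 tests share groups and are not independent.

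In Low PAC mice, Ace differed from water by -0.84 on the log2 scale (SE 0.297, interval -1.47 to -0.21). Its unadjusted edgeR p was 0.0123 and its adjusted p 0.976, and the exact permutation p was 0.0317. Between High PAC and Low PAC mice the log2 difference was -0.44, with an interval of -1.06 to 0.19 that includes 0. The data therefore did not separate the 2 preparations for Ace, nor did they show that both act alike.

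Values of proximal small intestine markers are given beside Ace. Gata4, a transcription factor of proximal enterocytes that was picked from that list after its values were seen, was at 1.69 to 12.7 FPKM in water mice, 0.48 to 6.23 in Low PAC mice and 0.39 to 4.23 in High PAC mice. The lowest Ace value, 41.0 FPKM in High PAC replicate 3, stood beside 0.75 FPKM of Gata4, and the highest, 240 in water replicate 4, beside 12.5. The summed FPKM of 14 proximal genes was 4749 to 7370 in water mice, 2835 to 6971 in Low PAC mice and 4131 to 6254 in High PAC mice, so that the groups overlapped. The 14 genes had a median log2 fold change of -0.45 for High PAC against water, with 5 lower at an unadjusted p under 0.05 (10.4% of all genes were), 4 above 0 and none past the adjusted threshold in edgeR. The 7 distal ileum genes had a median of -0.05. Their summed FPKM was 5297 to 8606 in water, 7677 to 9294 in Low PAC and 7845 to 11874 in High PAC mice. The highest sum was that of High PAC replicate 3. The part of the position of the sampled piece in the Ace difference was not tested.

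**Figure D2:**
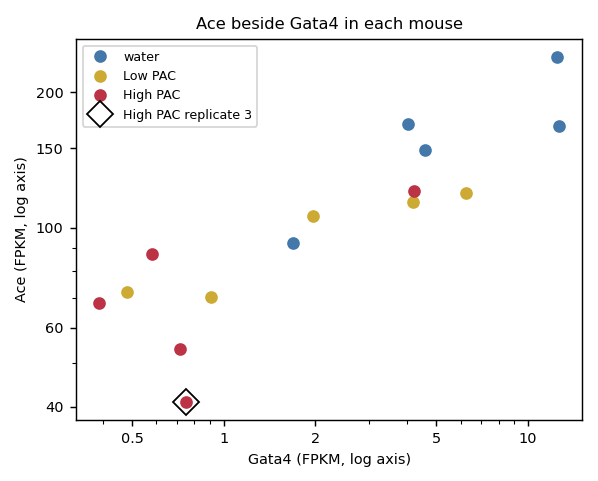
Ace against Gata4 in each of 15 mice, both in FPKM on log axes, coloured by group. The lowest Ace value is 41.0 FPKM, at 0.75 FPKM of Gata4 (High PAC replicate 3, open diamond), and the highest 240, at 12.5 (water replicate 4). Gata4 is lowest in High PAC replicate 5 (0.39, with Ace at 68.2) and highest in water replicate 5 (12.7, with Ace at 168). The groups overlap on both axes.

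The log2 differences of the aminopeptidases and Dpp4 between High PAC and water mice were smaller than that of Ace, and were smaller again without High PAC replicate 3. Anpep was at 3489, 3155, 3822, 3746 and 2941 FPKM in water mice, 3063, 3185, 3244, 2623 and 2893 in Low PAC mice, and 2883, 2797, 1216, 3057 and 2717 in High PAC mice. High PAC replicate 3 was far below every other mouse, and of the other 4 High PAC mice, 3 lay below the lowest water mouse. The log2 fold change against water was -0.53 (SE 0.202, unadjusted p = 0.0178, adjusted p = 0.268 in edgeR) with all mice and -0.32 (SE 0.102, unadjusted p = 0.00738, adjusted p = 0.334 in edgeR) without that mouse.

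Dpp4 followed the same pattern. Its FPKM was 248, 248, 298, 278 and 235 in water mice, 229, 222, 209, 199 and 255 in Low PAC mice, and 235, 234, 107, 227 and 196 in High PAC mice. All High PAC values but replicate 1 lay below the lowest water value, in part by a fraction of an FPKM. The edgeR log2 fold change for Dpp4 was -0.48 (unadjusted p = 0.014, adjusted p = 0.261), and -0.29 (unadjusted p = 0.00957, adjusted p = 0.343) without High PAC replicate 3. For Low PAC against water the log2 fold change of Dpp4 was -0.29 with an interval of -0.66 to 0.08, and its FPKM difference of -0.23 on the log2 scale had an exact permutation p of 0.0476, with 4 of 5 Low PAC mice below every water mouse. Enpep, at 652, 663, 797, 704 and 509 FPKM in water mice, 655, 645, 593, 531 and 617 in Low PAC mice and 676, 624, 324, 607 and 552 in High PAC mice, overlapped between all groups. Its log2 fold change of -0.35 had an unadjusted p of 0.0599 in edgeR, and it was -0.17 (unadjusted p = 0.163) without that mouse.

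Mme, which like Ace is a zinc metallopeptidase of the brush border, was at 39.3, 42.8, 50.4, 62.5 and 49.0 FPKM in water mice, 36.1, 23.9, 36.7, 36.6 and 47.5 in Low PAC mice, and 48.7, 42.1, 11.1, 28.0 and 32.7 in High PAC mice. Below the lowest water mouse lay 4 of 5 Low PAC and 3 of 5 High PAC mice. For High PAC against water its log2 fold change was -0.68 (SE 0.280, unadjusted p = 0.028, adjusted p = 0.291 in edgeR), or -0.42 (unadjusted p = 0.0407, adjusted p = 0.445) without High PAC replicate 3. For Low PAC against water it was -0.49 with an interval of -1.08 to 0.10, and the exact permutation p of its FPKM difference of -0.45 was 0.0476. For High PAC against water the FPKM difference of Mme, -0.73, had an exact permutation p of 0.0556, and of 0.119 without High PAC replicate 3.

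The other 4 genes are not confined to the brush border. Lnpep, found mainly in intracellular vesicles, was at 8.09, 12.6, 8.27, 9.07 and 12.7 FPKM in water mice, 10.7, 11.1, 8.56, 9.14 and 10.8 in Low PAC mice, and 10.7, 8.34, 6.69, 7.85 and 7.06 in High PAC mice. The groups overlapped, and 4 of 5 High PAC mice were below every Low PAC mouse. Its log2 fold change was -0.41 (unadjusted p = 0.0109, adjusted p = 0.248 in edgeR) against water and -0.35 (unadjusted p = 0.0265, adjusted p = 0.896) against Low PAC. Without High PAC replicate 3 these values were -0.31 (adjusted p = 0.474 in edgeR) and -0.27 (adjusted p = 0.999). With all mice, the exact permutation p of the FPKM difference of Lnpep was 0.143 against water and 0.0476 against Low PAC.

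Agt, the source of all angiotensins, was alike in the 3 groups, with means of 14.9 ± 2.39 FPKM in water, 15.7 ± 2.48 in Low PAC and 15.1 ± 2.24 in High PAC mice. Its log2 fold change for High PAC against water was -0.08, with an interval of -0.36 to 0.20. Ctsa varied least, between 49.8 and 59.8 FPKM over all 15 mice, with a log2 fold change of -0.13 (interval -0.27 to 0.01). Prcp lay between 6.29 and 7.64 FPKM in the 10 water and Low PAC mice, and was spread more widely in High PAC mice, at 8.92, 5.28, 11.0, 5.80 and 5.69. Its highest values, in High PAC replicates 1 and 3, came from the mice with the highest summed FPKM of 10 B cell genes of Peyer's patches, 257 and 242, against 6.54 to 174 in the other 13 mice. Among water mice, the highest B cell sums, 174 in replicate 5 and 155 in replicate 3, stood beside the highest and the lowest Prcp of that group, 7.64 and 6.72 FPKM. High PAC replicates 3 and 1 also had the highest sums of macrophage genes, 362 and 265 FPKM. The part of the B cell content in the Prcp values was not tested.

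Read together, 0 of 9 genes passed an adjusted p of 0.05 in edgeR for High PAC against water, for which the test called 2 of 14386 genes (0.0139%). At an unadjusted p under 0.05, 5 of 9 were lower (Ace, Anpep, Dpp4, Lnpep and Mme), against 10.4% of all genes tested, and none was higher. Their median log2 fold change was -0.41, against 0.00 over all genes tested. Upper-quartile normalization moved the split of all genes at an unadjusted p under 0.05 from 628 higher and 1500 lower to 1505 higher and 816 lower, while 5 of the 9 genes stayed lower, with a median of -0.35. Without High PAC replicate 3, 4 of 9 were lower (Ace, Anpep, Dpp4 and Mme), against 5.62% of genes, with a median of -0.29. For Low PAC against water, 0 of 9 were called (0% of genes) and Ace alone was lower at an unadjusted p under 0.05, against 2.21% of genes, with a median of -0.19. A fit of only the 10 mice of these groups had 3 of 9 lower at that p (Ace, Mme and Dpp4), against 2.78% of genes, and none at the adjusted threshold. For High PAC against Low PAC, 0 of 9 were called (0% of genes) and Lnpep alone was lower at an unadjusted p under 0.05, against 2.05% of genes. The 3 comparisons share groups and are not independent. No gene of the 9 was lower without overlap of the groups in High PAC against water, Low PAC against water or High PAC against Low PAC, where 0.646%, 0.111% and 0.0904% of the tested genes were.

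The structural genes of the brush border had differences in the same direction, none past the adjusted threshold in edgeR, so each gene was also measured against them within the same library. Of the 14 genes of this list, 14 had a log2 fold change below 0 for High PAC against water and 11 were lower at an unadjusted p under 0.05 (10.4% of all genes were), with a median of -0.34. Without High PAC replicate 3 there were 6 (5.62% of all genes), with a median of -0.18, and with upper-quartile normalization of all mice there were also 6, with a median of -0.28. The list holds Mttp, a lipid transfer protein of the endoplasmic reticulum. Without Mttp, 10 of 13 were lower (5 without High PAC replicate 3), Ace differed from the mean of the 13 genes by -0.94 (exact p = 0.0238) and Anpep by -0.26 (exact p = 0.0159). Relative to the mean log2(FPKM + 0.1) of all 14 genes, Ace differed between High PAC and water mice by -0.92 on the log2 scale (exact permutation p = 0.0238), and by -0.86 without High PAC replicate 3 (exact p = 0.0476). Anpep differed from the structural genes by -0.24 (exact p = 0.0476), and by -0.12 (exact p = 0.111) without that mouse. Mme differed by -0.47 (exact p = 0.167), Dpp4 by -0.18 (exact p = 0.127) and Enpep by -0.03 (exact p = 0.802). Without that mouse these values were -0.25 for Mme (exact p = 0.318), -0.10 for Dpp4 (exact p = 0.246) and 0.03 for Enpep (exact p = 0.778). For Low PAC against water, Ace differed by -0.63 (exact p = 0.0556). A ratio within a library shows unequal change and does not tell which of its terms moved.

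Markers of other cell types are given for the same comparison. None of these genes passed the adjusted threshold in edgeR. The median log2 fold change for High PAC against water was 0.42 for 10 smooth muscle genes, whose summed FPKM was 337 to 1073 in water and 800 to 1284 in High PAC mice, and 0.58 for 10 genes of enteric neurons and glia, at 8.66 to 24.7 and 25.5 to 31.7. Water replicates 1 and 3 stood apart in both, with muscle sums of 382 and 337 FPKM against 678 to 1284 in the other 13 mice, and neuron and glia sums of 10.1 and 8.66 against 18.7 to 31.7. The median muscle sum was 1011 FPKM in water and 1142 in High PAC mice. At an unadjusted p under 0.05, 0 of the 10 smooth muscle genes and 3 of the 10 neuron and glia genes were higher, where 4.37% of all genes were. For 6 mesothelial genes the median was 0.82, with 0 at that p and sums of 7.97 to 24.6 FPKM in water and 13.4 to 33.3 in High PAC mice. For 10 B cell genes it was 0.07, with 0 at that p, and -0.42 without High PAC replicate 3, and for Low PAC against water it was -1.22. For the 12 epithelial genes the median for High PAC against water was -0.06. The part of tissue composition in the values of the 9 genes was not tested.

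**Figure D3:**
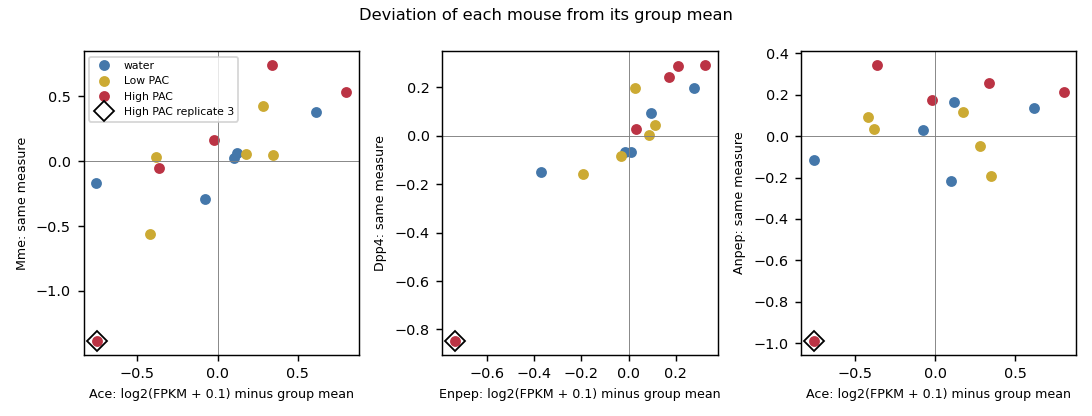
Deviation of log2(FPKM + 0.1) from the group mean in each of 15 mice, for Ace and Mme, for Enpep and Dpp4, and for Ace and Anpep, coloured by group. Ace and Mme, and Enpep and Dpp4, vary together also without High PAC replicate 3 (open diamond; r = 0.739 and 0.796), whereas r for Ace and Anpep is 0.454 with and -0.002 without it.

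Between mice of the same group, the genes fell into pairs and sets that varied together. After subtraction of the group means, Enpep and Dpp4 had a Pearson r of 0.937 over 15 mice (Spearman rho 0.917, permutation p = 1e-05, the smallest that 100000 resamples can give, 0.00036 after Benjamini-Hochberg adjustment over 36 pairs). Anpep and Enpep had an r of 0.927 (rho 0.846, permutation p = 2e-05, adjusted 0.00036) and Anpep and Dpp4 of 0.932 (rho 0.811, permutation p = 6e-05, adjusted 0.00072). Without the 2 mice farthest from the median, r was 0.859, 0.764 and 0.708 for these pairs, and without High PAC replicate 3 alone 0.796, 0.78 and 0.574. Ace and Mme had an r of 0.768 (rho 0.832, permutation p = 0.0004, adjusted 0.0036), which was 0.746 without the 2 farthest mice and 0.739 without High PAC replicate 3. The permutations exchange the centred values among all 15 mice, although the groups differed in spread, so these p-values are approximate. For Anpep the SD was 29.5% of the mean in High PAC, 8.34% in Low PAC and 11.0% in water mice.

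Ace did not share this with the aminopeptidases: its r with Anpep was 0.454 (rho 0.339, permutation p = 0.0888, adjusted 0.228) and -0.04 without the 2 farthest mice. The r of Mme with Dpp4, 0.853 (rho 0.667, permutation p = 0.00074, adjusted 0.00533), was 0.501 without the 2 farthest mice and 0.452 without High PAC replicate 3. Of the 36 pairs, 6 had an adjusted p under 0.05, and 3 did without this mouse (Enpep and Dpp4, Anpep and Enpep, and Ace and Mme). Anpep and Dpp4 did not pass without it (r = 0.574, adjusted permutation p = 0.28), nor did Mme and Dpp4, or Enpep and Mme, whose r was 0.726 with and 0.155 without it.

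The genes whose pattern over the 15 mice was most like that of each gene were sought among 12429 others, by Pearson's r of log2(FPKM + 0.1) as a description. All these r values include High PAC replicate 3, and how far they rest on that mouse was not tested. For Ace these were Kcnj13, Npl and Enpp7 (r = 0.916 each). For Mme they were Slc15a1, the intestinal peptide transporter (0.948), Edn3 (0.94) and Slc13a2 (0.934). Anpep was closest to Slc7a7, a transporter of basic amino acids (0.973), Ptprh and Clca4b, and Enpep to Papss2 (0.964), Atp1b1 and Slc3a1, a subunit of the cystine transporter. Dpp4 was closest to Gng12 (0.974), Btnl6 and Sec23a. For the 4 genes not confined to the brush border, the closest were Vps13b for Lnpep (0.932), Slc9a3r2 for Agt (0.886), Cklf for Prcp (0.92) and Tmem248 for Ctsa (0.878).

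Other genes of the renin-angiotensin system were taken from a list of 19, of which 16 were in the files and 8 passed the filter on low counts. For High PAC against water, 1 of the 8 was higher at an unadjusted p under 0.05, where 4.37% of all genes were higher, none passed the adjusted threshold in edgeR, and their median log2 fold change was 0.02. Klk1, tissue kallikrein, which releases kinins, had a log2 fold change of 0.41 (unadjusted p = 0.0117, adjusted p = 0.25 in edgeR), and of 0.32 (unadjusted p = 0.0265) without High PAC replicate 3.

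Agtrap, a protein that binds the angiotensin receptor, had a log2 fold change of 0.17 (unadjusted p = 0.0557, adjusted p = 0.35 in edgeR). Renin itself was nearly absent: Ren1 had 0 counts in the 5 water mice and at most 2 expected counts in any mouse. The receptor genes were low, Agtr1a at 1.76 ± 0.217 FPKM in water and 1.96 ± 0.481 in High PAC mice, and Mas1, the receptor of the counter-acting arm, at no more than 0.13 FPKM in any mouse.

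Of 9 other brush border peptidases, 7 passed the filter and 0 passed the adjusted threshold in edgeR for High PAC against water. Mep1b, a subunit of the metalloprotease meprin, had a log2 fold change of -0.41 (unadjusted p = 0.00805, adjusted p = 0.234 in edgeR), and of -0.28 (unadjusted p = 0.0198) without High PAC replicate 3. Ggt1, a glutathione-cleaving transferase, had a log2 fold change of -0.21 (unadjusted p = 0.107, adjusted p = 0.419 in edgeR), and of -0.07 (unadjusted p = 0.427) without that mouse.

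Of 19 genes related in sequence to the 9, 15 passed the filter, 2 were higher and 2 lower at an unadjusted p under 0.05 in edgeR (Scpep1, Dpp10, Npepps and Rnpep), where 4.37% of all genes were higher and 10.4% lower, and their median was -0.04. Dpp10, which lacks peptidase activity, had a log2 fold change of 0.81 (unadjusted p = 0.0425 in edgeR). Scpep1, a serine carboxypeptidase related to Ctsa, had the smallest p. Its FPKM was 34.0, 35.0 and 37.3 (lowest, median and highest) in water, 39.5, 39.9 and 40.7 in Low PAC and 41.7, 44.0 and 45.9 in High PAC mice, without overlap between any of the groups. Higher values without overlap were found for 3.99% of the tested genes in High PAC against water, 0.494% in Low PAC against water and 0.646% in High PAC against Low PAC. The log2 fold change of Scpep1 for High PAC against water was 0.21 (SE 0.0494, unadjusted p = 0.00058, adjusted p = 0.162 in edgeR), and 0.23 (adjusted p = 0.126) without High PAC replicate 3. The cytosolic aminopeptidase Npepps had a log2 fold change of -0.19 (unadjusted p = 0.00855, adjusted p = 0.237 in edgeR) and Rnpep, aminopeptidase B, of -0.22 (unadjusted p = 0.0287, adjusted p = 0.293).

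The files also gave a transcript length for each gene and mouse, which varied for 4 of the 9 genes (Ace, Mme, Ctsa and Dpp4). In the annotation (GENCODE, GRCm38), Ace spans chr11:105967945-105989964 on the plus strand. The transcript Ace-201 has 25 exons and 4906 bases, and Ace-202 has 14 exons and 2418 bases. Ace-202 starts in intron 12 of Ace-201, 7263 bases after its start, and shares 12 whole exons with it. It is the shorter form with a single catalytic domain, known from male germ cells, and the second Ace window above lies before its RefSeq start.

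The deposited Ace length was 4836 to 4936 bases in 13 mice, 4702 in Low PAC replicate 4 and 3962 in High PAC replicate 3. Among 3164 genes with a varying length, Ace was the 4th most shortened in High PAC replicate 3, at -0.31 on the log2 scale against the median mouse. This mouse had 15 genes shortened by more than 0.2 on that scale, where the other 14 mice had at most 1 each, and 60.5% of its genes with a varying length were shorter than in the median mouse, against 38.0% to 50.8% in the others. FPKM is divided by this length, so the Ace value of High PAC replicate 3, 41.0 FPKM, would be lower at the length of the other mice. Its share of expected counts, 0.0159%, was the lowest of the 15 mice, the others being at 0.026% to 0.116%.

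**Figure D4:**
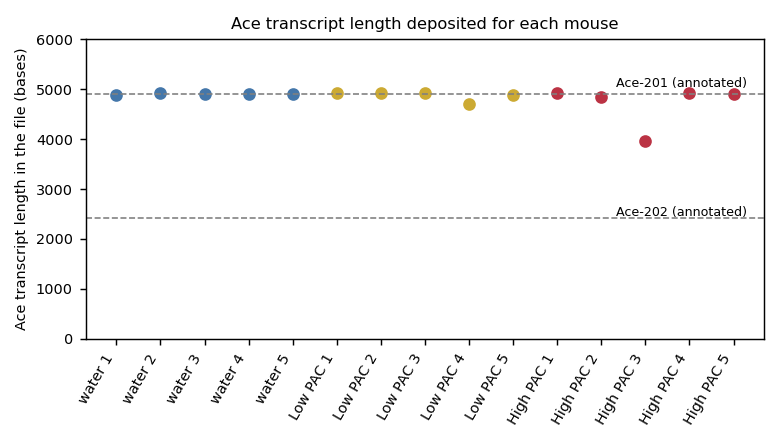
Length of the Ace transcript, in bases, deposited for each mouse, with the annotated lengths of Ace-201 (4906) and Ace-202 (2418) as dashed lines. High PAC replicate 3 is at 3962 bases, below the 14 other mice.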

How the data were processed

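Total RNA of 15 ileal samples was sequenced as paired reads on a BGISEQ-500. The study's methods name SOAPnuke, Bowtie2 and NOIseq with the mouse build mm10, while the submitters' processing notes name HISAT and DESeq2. The counting tool is not given in the sources used here. The authors deposited, for each mouse, expected counts per gene (estimated fragments, of which 88.6% to 89.5% were whole numbers) and a transcript length. The authors also deposited FPKM, which divides these by transcript length and library size. Depth was 15963086 to 17903886 expected counts per mouse.

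After rounding, the test across genes was that of edgeR 4.0.16 (R 4.3.3; filterByExpr, TMM, quasi-likelihood F test, all 15 mice in 1 model, Benjamini-Hochberg adjustment over 14386 genes, threshold 0.05). Single differences and relations used log2(FPKM + 0.1) with exact or 100000-resample permutation, 2-sided. Alternatives were DESeq2 1.42.0 (adjusted p missing for 7809 genes for High PAC against water, which could not be called but were kept in the total of its share), limma 3.58.1, NOISeq re-implemented, upper-quartile normalization, no filter, other pseudocounts, and each mouse left out. Scripts were tested on simulated counts. The genes and lists were chosen with earlier results of these data known. Named beside the 9 genes were the genes of 3 lists past the adjusted threshold or, with none, the 3 with the smallest p, with Ren1, Agtr1a and Mas1, and the genes most alike to each; 1 further gene of this rule is not reported here. Gata4 and Dpp10 were named after their values were seen.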

Additional observations from a re-analysis of the deposited data

Results flagged for a closer look

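In 27 groups of 5 FPKM values (9 genes, 3 groups), 1 held a sample far from the others by Dixon's ratio of its gap to the whole range, whose critical value for 5 samples is 0.71. This was Anpep in High PAC replicate 3, the lowest of its group, with a ratio of 0.815. Among 12 groups of deposited transcript lengths, 2 were past that value, both for Ace, namely Low PAC replicate 4 with 0.843 and High PAC replicate 3 with 0.913, each the shortest of its group. Chance flags about 1 in 20 groups.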

How the results depend on the processing

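Ace stayed below its water level in 21 of 21 alternatives with an adjusted p for High PAC (log2 -1.54 to -1.06, adjusted p 0.0173 to 0.334), of which 2 called it, both with DESeq2, and NOISeq, which gives a probability, called it too. The number of the 9 genes called in that comparison went from 0 to 1 with DESeq2, with DESeq2 without High PAC replicate 3 and with NOISeq. The number lower at an unadjusted p under 0.05 went from 5 to 3 with limma without a filter. It went from 1 to 3 for Low PAC against water with only the 10 mice compared (2.78% of genes), and from 1 to 0 for High PAC against Low PAC with limma at a pseudocount of 0.1, with or without a filter, with limma at a pseudocount of 1 and with DESeq2 without High PAC replicate 3. With each mouse left out, that last count was 0 to 2, the count of exact tests under 0.05 was 2 to 8 (7 with all mice; 2 without water replicate 3 or 4, 3 without water replicate 1 or Low PAC replicate 1 or 2), and the same count relative to structural genes was 1 to 3 (2 with all mice; 1 without water replicate 3 or 4 or High PAC replicate 3). The High PAC against Low PAC count was 0 without Low PAC replicate 2 or 5 or High PAC replicate 3 or 5. Related pairs fell from 6 to 3 in the 14 mice without High PAC replicate 3, chosen after seeing the data as were the DESeq2 fits without it and the list without Mttp. They rose to 9 with log2 CPM (Ace and Dpp4, Anpep and Mme, and Anpep and Prcp passed as well) and were 4 without the 2 farthest mice, where Agt and Lnpep passed (r = -0.725). Without High PAC replicate 3, r was -0.002 for Ace and Anpep (-0.04 without the 2 farthest mice), -0.024 for Ace and Enpep and -0.075 for Anpep and Mme. The cause was not tested.

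The following log2 values turned sign. Prcp in High PAC against water was 0.0282 with upper-quartile normalization, 0.0017 (pseudocount 0.1, with and without the filter) or 0.007 (pseudocount 1) with limma, 0.0623 with NOISeq and -0.1897 to 0.0517 with a mouse left out. Agt was 0.018 or 0.0168 with limma, 0.0156 with NOISeq and -0.1565 to 0.008 with a mouse left out. In Low PAC against water, Ctsa was 0.0041 or 0.004 with limma, 0.0023 with NOISeq and -0.0795 to 0.0012 with a mouse left out, Lnpep 0.007 or 0.0048 with limma and -0.1224 to 0.0236, and Agt -0.0661 to 0.0985. In High PAC against Low PAC, Mme was 0.041 and Prcp -0.1386 with DESeq2 without High PAC replicate 3, and -0.3637 to 0.0458 and -0.1328 to 0.1299 with a mouse left out. Relative to the structural genes, leaving out High PAC replicate 3 turned Enpep from -0.03 to 0.03 and Prcp from 0.26 to -0.03 in High PAC against water. In High PAC against Low PAC it turned Prcp from 0.18 to -0.11, Mme from -0.13 to 0.09, Agt from 0.10 to -0.07, Enpep from -0.014 to 0.042 and Dpp4 from -0.057 to 0.027. The FPKM differences of High PAC that turned without that mouse were Agt (0.018 to -0.029) and Prcp (0.0017 to -0.16) against water. Against Low PAC they were Enpep (-0.17 to 0.016), Mme (-0.28 to 0.066), Prcp (0.026 to -0.13) and Dpp4 (-0.21 to 0.0009). Among single values, 747 kept direction and side of the threshold, 12 passed it newly, 46 lost it and 38 turned.

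Replicate numbers did not pair the mice (correlation of same-numbered deviations -0.22 to 0.45 for High PAC and water). With the replicate block, 0 of 9 genes were called and Ace was at -1.27 (adjusted p = 0.301 in edgeR). With 5 mice per group, intervals as wide as that of Ace for High PAC against Low PAC leave differences of that size undetected.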
